A study of Mus musculus with 16 samples.

Results

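MiRNA levels of 4 loci known from blood cells, miR-142, miR-150, miR-223 and miR-342, were followed in whole lungs of mice with ovalbumin (OVA)-driven allergic airways disease. These loci were chosen with earlier results of these data known. Members were then taken by name, as each mouse miRNA of the array named for one of these loci, with or without an arm suffix. This gave 7 of the 611 mouse miRNAs arrayed: miR-142-3p, miR-142-5p, miR-150-3p, miR-150-5p, miR-223-3p, miR-342-3p and miR-342-5p. The scanner software called 5 of the 7 detected on all 16 arrays. It called miR-342-5p detected on 14 arrays and miR-150-3p on 0. A miRNA was tested where 1 group or more had it detected throughout, which left 6 of the 7 members among 266 mouse miRNAs. MiR-342-5p met this in 3 groups, so its entry did not rest on OVA/OVA alone.

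RNA from each lung sample was hybridised to 1 Agilent 1-colour array. All mice were BALB/c and 8 to 12 weeks old. On day 0 all groups received 1 mg of Alhydrogel, an aluminium adjuvant, into the peritoneum. In the OVA/OVA and OVA/OVA DEX groups this injection also held 50 μg of chicken egg OVA, and in the PBS/PBS and PBS/OVA groups it held no OVA. Intranasal challenges on days 12, 13, 14 and 15 consisted of 10 μg of OVA in every group except PBS/PBS, which per the labels received PBS. The OVA/OVA DEX mice were also given the glucocorticoid dexamethasone (DEX, 3 mg/kg) from day 11 on every second day, while the labels give PBS as the treatment of the other 3 groups. Lungs were taken 24 hours after the last challenge, on day 16, which gave 6 arrays for OVA/OVA, 4 for OVA/OVA DEX, 4 for PBS/OVA and 2 for PBS/PBS. No group had DEX without OVA. The labels number the replicates without tying them to animals, so p-values measure the spread between these arrays, and the number of arrays limits their precision.

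MiRNAs are short RNAs, cut as a 5p and a 3p arm from a hairpin, that pair through their seed with messenger RNAs and lower the output of these messages. MiR-223 is abundant in neutrophils and other myeloid cells, where it restrains granulocyte production and activation. MiR-142 is made in nearly all blood cell lineages, miR-150 is typical of mature B and T lymphocytes and acts on the transcription factor Myb, and miR-342 is carried by the Evl gene and found in lymphoid and myeloid cells. In lung RNA these miRNAs are read as signs of leukocytes, but in whole tissue a change in the number of such cells and a change of RNA per cell cannot be told apart.

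The mature sequences are shown so that the arms and seeds measured here can be compared. RefSeq (GRCm38.p6) held 6 of the 7 members, with miR-150-5p named only. Capitals mark the seed, bases 2 to 8 from the 5′ end.
miR-223-3p: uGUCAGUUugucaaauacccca
miR-142-3p: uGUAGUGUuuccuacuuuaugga
miR-142-5p: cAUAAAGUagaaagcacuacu
miR-150-3p: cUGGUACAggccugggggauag
miR-342-3p: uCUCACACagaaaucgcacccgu
miR-342-5p: aGGGGUGCuaucugugauugag

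All 6 seeds differed from each other, and 0 other mature mouse miRNAs of the RefSeq table shared any of them. The lengths ran from 21 to 23 bases. GC content ran from 33.3% for miR-142-5p to 63.6% for miR-150-3p. The arms of miR-142 lie on the plus strand at chr11:87756903-87756925 (3p, listed by RefSeq as miR-142a-3p) and chr11:87756867-87756887 (5p), within the coordinates of Mir142b. The 3p arm of miR-223 lies on chrX:96242884-96242905, inside the lncRNA gene F630028O10Rik. MiR-150-3p lies on chr7:45121798-45121819. The arms of miR-342 lie on chr12:108658680-108658702 (3p) and chr12:108658638-108658659 (5p), inside the protein-coding gene Evl. Both members of the miR-142 and of the miR-342 locus therefore come from 1 transcript each and are not independent measurements of their locus.

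Levels are given as log2 scaled signal, the background-subtracted spot intensity averaged per probe, summed over the probes of a miRNA and scaled to the 75th percentile of the 206 mouse miRNAs detected on every array. Such levels can be compared between arrays for 1 miRNA but not between miRNAs, whose probes bind differently. Before scaling, the summed signal of all mouse miRNAs ran from 793227 to 940050 in PBS/PBS, from 493063 to 718149 in PBS/OVA and from 251350 to 733489 in OVA/OVA. The OVA/OVA DEX arrays ran from 499733 to 638811. The PBS/PBS arrays were thus the brightest, and OVA/OVA spanned the ranges of PBS/OVA and OVA/OVA DEX and reached below them. The members are therefore also given under other scalings at the end. Both PBS/PBS arrays were on slide 1, and the other groups were spread over both slides. For the 5 bright members, each with 20 spots, the coefficient of variation of spot signals was taken within a probe, outlier spots left out. The median over the probes of a member was 26.7% to 42.8% on OVA/OVA DEX replicate 4, against at most 15.7% on any other array. PBS/OVA replicate 2 stood apart from its group in several members.

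MiR-223-3p, the myeloid member, was lowest in both control groups, highest in OVA/OVA and in between in OVA/OVA DEX. Its log2 scaled signal was 11.51 and 11.30 on the PBS/PBS arrays and 11.52, 11.38, 11.64 and 11.53 on the PBS/OVA arrays. It ran from 12.27 to 12.99 with a median of 12.66 in OVA/OVA, and was 12.12, 12.26, 12.39 and 11.72 in OVA/OVA DEX. Each OVA/OVA array lay above each control array, and each OVA/OVA DEX array did too, while OVA/OVA and OVA/OVA DEX overlapped. In the limma fit, with Benjamini-Hochberg adjustment over the 266 miRNAs tested, miR-223-3p rose in OVA/OVA by 1.22 ± 0.196 (log2 difference ± SE, 2.34-fold, adjusted p = 0.00112) against PBS/PBS and by 1.12 ± 0.155 (2.17-fold, adjusted p = 0.000321) against PBS/OVA. The difference between OVA/OVA and OVA/OVA DEX was 0.51 ± 0.155 (1.42-fold, adjusted p = 0.0143). Without OVA/OVA DEX replicate 4 it was 0.38 and no longer passed (adjusted p = 0.0516). OVA/OVA DEX stood 0.61 ± 0.17 above PBS/OVA (95% confidence interval 0.24 to 0.97), which did not pass over all miRNAs (adjusted p = 0.0684) but did without OVA/OVA DEX replicate 4 (0.74, adjusted p = 0.0276). Against PBS/PBS the same gap was 0.71 ± 0.208 (adjusted p = 0.209). The call of a lower level under DEX thus rested on 1 array.

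MiR-142-3p, from the locus shared by most blood cells, stood highest in the OVA/OVA lungs, and the remaining groups did not differ among themselves beyond their spread. Its log2 scaled signal was 14.14 and 13.98 in PBS/PBS and 14.05, 13.55, 13.99 and 14.19 in PBS/OVA. In OVA/OVA it ran from 14.60 to 15.18 with a median of 15.10, and in OVA/OVA DEX it was 13.98, 13.78, 14.26 and 13.68. The 6 OVA/OVA arrays lay above the 10 others without overlap. The rise was 0.92 ± 0.201 (1.89-fold, adjusted p = 0.00674) against PBS/PBS, 1.03 ± 0.159 (2.04-fold, adjusted p = 0.000492) against PBS/OVA and 1.05 ± 0.159 (2.07-fold, adjusted p = 0.000193) against OVA/OVA DEX by limma. The call against PBS/PBS was lost without PBS/PBS replicate 2 (0.83, adjusted p = 0.0905). The difference of the treated mice from PBS/OVA was -0.02 (95% confidence interval -0.39 to 0.36). A difference from control smaller than that interval could not be detected in treated mice.

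MiR-142-5p, the other arm of the same hairpin, was also highest in OVA/OVA, with smaller differences. It stood at 10.57 and 10.44 in PBS/PBS and at 10.61, 9.70, 10.38 and 10.58 in PBS/OVA. In OVA/OVA the lowest, median and highest arrays were at 10.80, 10.90 and 11.29, and OVA/OVA DEX gave 10.54, 10.31, 10.47 and 10.33. The OVA/OVA arrays again lay above all others. MiR-142-5p rose by 0.66 ± 0.162 (1.58-fold, adjusted p = 0.00816) against PBS/OVA and by 0.57 ± 0.162 (1.48-fold, adjusted p = 0.0106) against OVA/OVA DEX. The difference from PBS/PBS was 0.47 ± 0.204 and did not pass (adjusted p = 0.0968). It passed without PBS/OVA replicate 2, the array at 9.70, at an unchanged 0.47 (adjusted p = 0.0206).

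MiR-150-5p, the lymphocyte member, moved least of the members in the comparisons of OVA/OVA with PBS/PBS and OVA/OVA DEX. Its levels were 8.62 and 8.24 in PBS/PBS, 8.47, 7.34, 8.30 and 8.56 in PBS/OVA, and 8.19, 8.18, 8.42 and 8.39 in OVA/OVA DEX. OVA/OVA ran from 8.47 to 8.92 with a median of 8.75. The groups overlapped except OVA/OVA and OVA/OVA DEX, and PBS/OVA replicate 2, at 7.34, was nearly 1 log2 unit below the next array of its group. The difference from PBS/OVA, 0.56 ± 0.197 (1.48-fold), passed narrowly (adjusted p = 0.0457). It fell below the threshold of the test when any array other than PBS/OVA replicates 1 and 4 or OVA/OVA replicates 4 and 5 was left out, that is for 12 of 16 arrays, with differences of 0.29 to 0.61 and adjusted p from 0.0504 to 0.0851. The value of 0.29 was that without PBS/OVA replicate 2, so this array supplied much of the difference. With the slide as a block it was 0.53 (adjusted p = 0.0501). Against PBS/PBS the difference was 0.30 ± 0.249 (adjusted p = 0.367). Against OVA/OVA DEX it was 0.44 ± 0.197 (adjusted p = 0.0768), and it passed without PBS/OVA replicate 2 (0.44, adjusted p = 0.0042), which enters this comparison only through the shared estimate of the spread. MiR-150-3p, the other arm, gave scaled signals of -30.9 to -7.8 before the floor was set, not above background on any array, so it has no group difference.

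MiR-342-3p, from the Evl locus, was the only tested member called lower in treated mice than in the challenged controls. Its 5p arm was also lower there (-0.68) but was not called (limma adjusted p = 0.0684). It was at 9.17 and 9.10 in PBS/PBS, at 9.17, 9.40, 9.12 and 9.38 in PBS/OVA and at 8.65, 8.74, 8.88 and 8.48 in OVA/OVA DEX. In OVA/OVA it ran from 9.31 to 9.81 with a median of 9.59. All 4 OVA/OVA DEX arrays lay below all others. The difference between OVA/OVA and OVA/OVA DEX was 0.90 ± 0.102 (1.87-fold, adjusted p = 2.69e-05), and OVA/OVA DEX fell by 0.58 ± 0.111 (log2 scale, adjusted p = 0.00786) against PBS/OVA. Among the 6 comparisons this was the only fall of a tested member by limma. The rises in OVA/OVA were smaller, 0.45 ± 0.129 (1.37-fold, adjusted p = 0.0226) against PBS/PBS and 0.32 ± 0.102 (1.25-fold, adjusted p = 0.032) against PBS/OVA. The rise over PBS/PBS was lost without either PBS/PBS array (0.49 and 0.41, adjusted p = 0.122 and 0.17). The rise over PBS/OVA was lost without PBS/OVA replicate 1 or 3 or OVA/OVA replicate 1, 2 or 3 (0.27 to 0.32, adjusted p from 0.0534 to 0.102).

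MiR-342-5p, the dim arm of this hairpin, was likewise highest in OVA/OVA and lowest in OVA/OVA DEX. Its scaled signal was 23.6 and 20.5 in PBS/PBS, 23.4, 20.2, 19.7 and 22.2 in PBS/OVA, from 25.2 to 40.1 on the OVA/OVA arrays, and 11.3, 17.3, 16.1 and 9.9 in OVA/OVA DEX. OVA/OVA and OVA/OVA DEX each lay apart from all other arrays. The software called it detected on 2 of the 4 OVA/OVA DEX arrays. It rose in OVA/OVA by 0.68 ± 0.208 (1.61-fold, adjusted p = 0.0309) against PBS/PBS, by 0.73 ± 0.164 (1.66-fold, adjusted p = 0.0048) against PBS/OVA and by 1.41 ± 0.164 (2.66-fold, adjusted p = 2.91e-05) against OVA/OVA DEX. The rise over PBS/PBS was lost without PBS/PBS replicate 1 or 2 or OVA/OVA replicate 2 or 3 (0.58 to 0.79, adjusted p from 0.0512 to 0.229), and also with the slide as a block (0.54, adjusted p = 0.0732). The difference between OVA/OVA DEX and PBS/OVA, -0.68 ± 0.18, did not pass (adjusted p = 0.0684), but did without OVA/OVA replicate 5 or OVA/OVA DEX replicate 2 (-0.68 and -0.81, adjusted p = 0.0302 and 0.0307). Of its 4 probes, 2 carried signal, and these gave 2.78 and 1.20 for OVA/OVA minus OVA/OVA DEX, so the size of this difference is less certain than that of miR-342-3p. With a model-based background correction (normexp) it was 0.34 (adjusted p = 0.335).

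**Figure D1:**
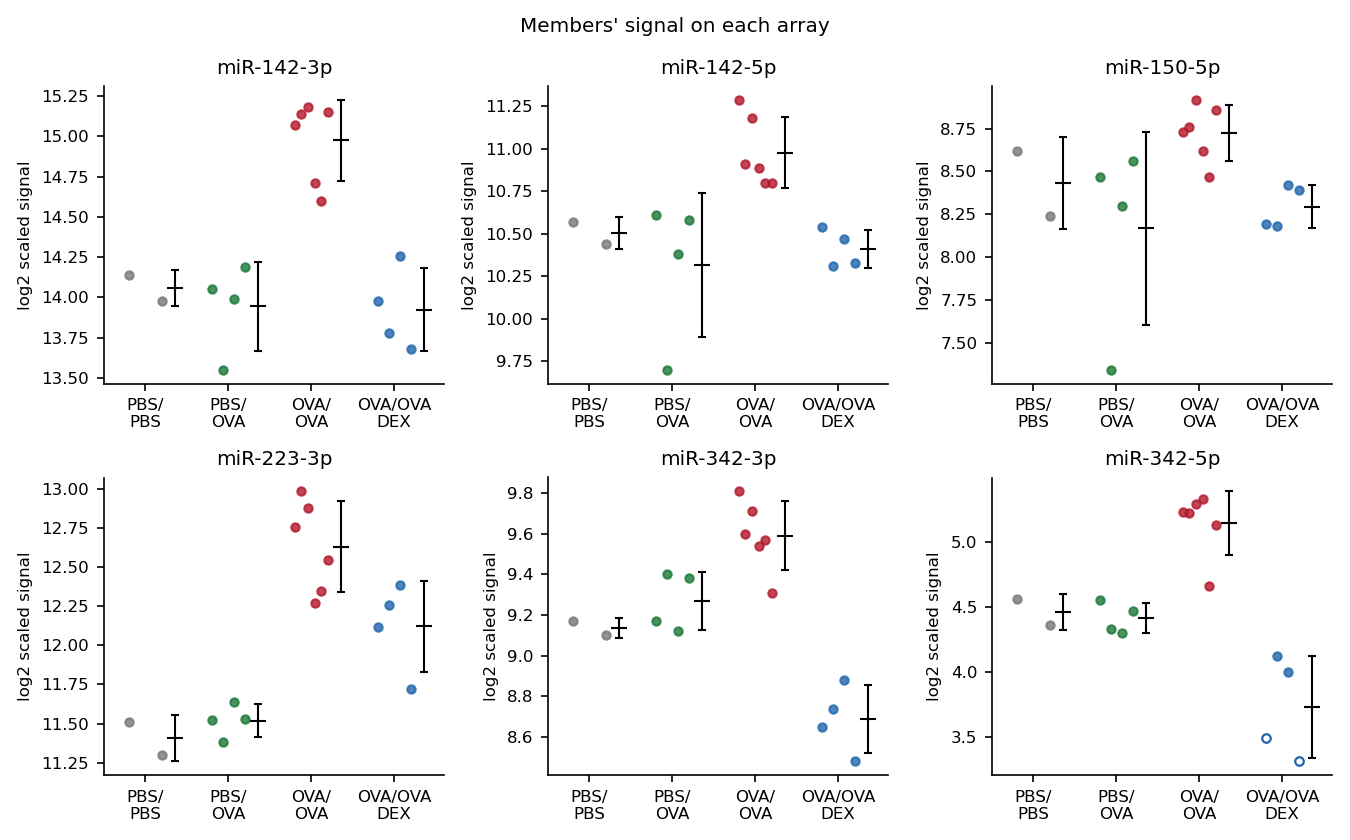
Log2 scaled signal (y axis, its range set for each panel) of the 6 tested members on each of the 16 arrays, by group (x axis). Points are arrays, open points are arrays on which the miRNA was not called detected, and bars give the group mean ± SD. On this scaling the OVA/OVA arrays lie above all others for miR-142-3p, miR-142-5p and miR-342-5p, and the OVA/OVA DEX arrays lie below all others for both arms of miR-342. For miR-223-3p they lie above both control groups and overlap OVA/OVA.

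The first question was whether sensitisation and challenge moved the members. Sensitised and challenged lungs (OVA/OVA) held more of 4 of the 6 tested members than PBS/PBS lungs, namely miR-142-3p, miR-223-3p, miR-342-3p and miR-342-5p, where 13.2% of the 266 miRNAs tested rose. Against PBS/OVA, which shares the challenge but not the sensitisation, 6 of 6 rose, where 14.7% of all tested miRNAs rose. These directions hold for the scaling used here, and without scaling between arrays 5 members turned lower against PBS/PBS and miR-342-3p against PBS/OVA. On the scaling used, 0 tested members fell in either comparison. The median difference over the tested members was 0.57 against PBS/PBS and 0.70 against PBS/OVA, beside -0.02 and -0.04 over all miRNAs tested. At a fold of at least 2, the rise of miR-223-3p remained against PBS/PBS (background 6.02%) and those of miR-142-3p and miR-223-3p against PBS/OVA (background 3.38%). These comparisons share the OVA/OVA arrays. The exact two-sided Mann-Whitney test of the methods cannot go below p = 0.0714 for untied values of 6 against 2 arrays. It called 0 members there after adjustment (0 also at an unadjusted p under 0.05) and 4 of 6 against PBS/OVA.

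The next question was whether challenge alone moved them. Between PBS/OVA and PBS/PBS 0 of the 6 tested members changed by limma (0 at an unadjusted p under 0.05), where 0.376% of all tested miRNAs were called. The differences ran from -0.26 for miR-150-5p (95% confidence interval -0.83 to 0.30) to 0.13 for miR-342-3p (-0.16 to 0.42). With 2 PBS/PBS arrays, differences of up to about these bounds could not be detected, and the Mann-Whitney test, limited to p of at least 0.133 here, could call none.

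Dexamethasone was then compared with no treatment in sensitised and challenged mice. 5 of the 6 tested members were higher in OVA/OVA than in OVA/OVA DEX by limma, where 21.1% of all tested miRNAs were, and the remaining member was miR-150-5p. The Mann-Whitney test also called 5 of 6. In that test miR-150-5p passed (Mann-Whitney adjusted p = 0.0305) and miR-223-3p did not (Mann-Whitney adjusted p = 0.0714). At a fold of at least 2, miR-142-3p and miR-342-5p remained (background 9.4%). The median difference was 0.74 for the tested members and -0.09 for all miRNAs. Compared with the control groups, OVA/OVA DEX differed in 1 tested member, the lower miR-342-3p against PBS/OVA, where 1.88% of all tested miRNAs were lower. Against PBS/PBS 0 of 6 differed after adjustment by limma (background 0%), although 3 had an unadjusted p under 0.05. These were miR-223-3p (0.71), miR-342-3p (-0.45) and miR-342-5p (-0.73), and the Mann-Whitney test could call none, since its p cannot go below 0.133 for untied values of 4 against 2 arrays.

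**Figure D2:**
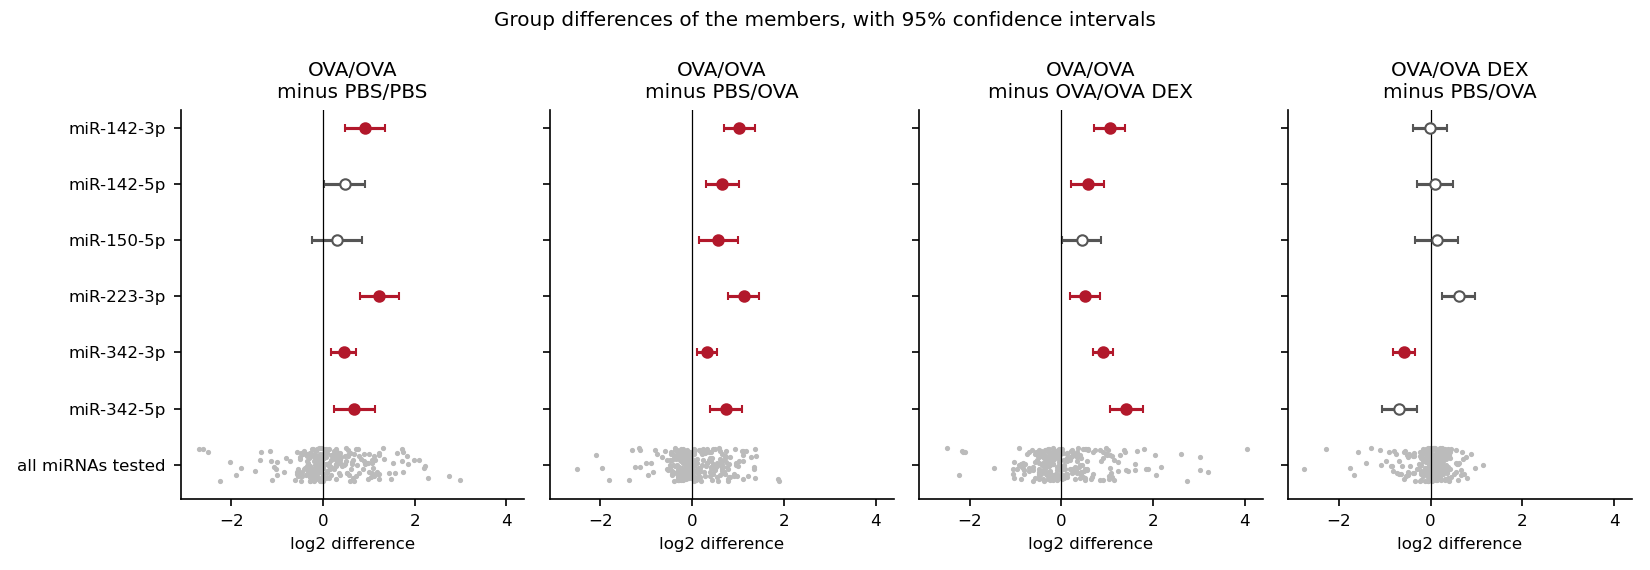
Log2 difference between groups (x axis) of the 6 tested members (y axis) with 95% confidence intervals, in 4 comparisons. Filled red points passed an adjusted p of 0.05 in limma, open points did not, and the grey points show all 266 miRNAs tested. The members lie to the right of zero in the 3 comparisons of OVA/OVA, and spread to both sides when OVA/OVA DEX is compared with PBS/OVA, from -0.68 for miR-342-5p to 0.61 for miR-223-3p.

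Whether the loci moved by the same amount was asked with the log2 ratio of a pair of members on the same array. A single scaling factor per array leaves this ratio unchanged. Quantile normalization can change it, and the ratios were not tested under that scaling. The 4 members miR-142-3p, miR-150-5p, miR-223-3p and miR-342-3p gave 6 pairs and, in 3 comparisons, 18 exact two-sided permutation tests over arrays. The smallest p these designs allow is 0.00476 for 6 against 4 arrays and 0.0286 for 4 against 4. Of the 18 tests, 11 passed after Benjamini-Hochberg adjustment over all 18, with adjusted p between 0.0286 and 0.0468.

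The clearest contrast was between miR-223-3p and miR-342-3p. The ratio of miR-223-3p to miR-342-3p was 2.25 ± 0.231 (log2, mean ± SD, n = 4) in PBS/OVA, 3.04 ± 0.266 (n = 6) in OVA/OVA and 3.43 ± 0.13 (n = 4) in OVA/OVA DEX. It thus stood 0.79 higher in OVA/OVA than in PBS/OVA (exact permutation p = 0.00476, adjusted 0.0286) and 0.39 higher in OVA/OVA DEX than in OVA/OVA (exact permutation p = 0.0286, adjusted 0.0468). Between OVA/OVA DEX and PBS/OVA the gap was 1.19, with no overlap of arrays (exact permutation p = 0.0286, adjusted 0.0468). With 1 array left out, the call was lost on 7 omissions for OVA/OVA minus PBS/OVA. It was lost on 13 for each of the 2 comparisons with OVA/OVA DEX. On slides 1 and 2 the ratio in OVA/OVA minus that in OVA/OVA DEX was -0.19 and -0.53. The PBS/PBS arrays, not tested, were at 2.20 and 2.34. Under quantile normalization, OVA/OVA minus OVA/OVA DEX relative to the median of all tested miRNAs was 1.0 for miR-223-3p and 0.97 for miR-342-3p. On the scaling used these values were 0.6 and 0.99. For miR-142-3p they were 1.22 with quantiles and 1.14 on the scaling used. The gaps of miR-223-3p to the other 2 members in this comparison were thus smaller with quantiles.

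The ratio of miR-142-3p to miR-223-3p showed where these leukocyte members parted under DEX. It differed by -0.08 between OVA/OVA and PBS/OVA (2.34 ± 0.155 and 2.43 ± 0.218, exact permutation p = 0.49, adjusted 0.575, n = 6 and 4). It was 1.80 ± 0.187 (n = 4) in OVA/OVA DEX, 0.54 below OVA/OVA (exact permutation p = 0.00476, adjusted 0.0286) and 0.62 below PBS/OVA (exact permutation p = 0.0286, adjusted 0.0468), in both cases without overlap. Within slides 1 and 2 these gaps were 0.33 and 0.70 for OVA/OVA minus OVA/OVA DEX and -0.35 and -0.90 for OVA/OVA DEX minus PBS/OVA. The ratio of miR-142-3p to miR-342-3p went the other way in OVA/OVA DEX minus PBS/OVA, by 0.56 (exact permutation p = 0.0286, adjusted 0.0468). It was 0.71 higher in OVA/OVA than in PBS/OVA (exact permutation p = 0.00952, adjusted 0.0429), and the difference between OVA/OVA and OVA/OVA DEX was 0.15 (exact permutation p = 0.39, adjusted 0.502).

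MiR-150-5p lagged behind miR-142-3p. The ratio of miR-142-3p to miR-150-5p was 6.25 ± 0.117 (n = 6) in OVA/OVA, 0.47 above PBS/OVA (exact permutation p = 0.0143, adjusted 0.0468) and 0.61 above OVA/OVA DEX (exact permutation p = 0.00476, adjusted 0.0286). The ratio of miR-150-5p to miR-223-3p differed by -0.55 between OVA/OVA and PBS/OVA and did not pass (exact permutation p = 0.0524, adjusted 0.0786). The ratio of miR-150-5p to miR-342-3p was 0.71 higher in OVA/OVA DEX than in PBS/OVA (exact permutation p = 0.0286, adjusted 0.0468), but 0.39 without PBS/OVA replicate 2, whose ratio was -2.06 where the next of its group was -0.83. Within slides this gap was 1.16 and 0.25. Each adjusted p was close to 0.05, and tests of 3 against 4 or 6 arrays have few splits. Leaving out any 1 array of PBS/OVA, OVA/OVA or OVA/OVA DEX therefore ended calls. Each of the 11 calls was lost on 4 to 14 of these omissions, while the differences of the 11 tests kept their sign. The number of pairs that passed then ran from 0 to 4 in each of the 3 comparisons.

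**Figure D3:**
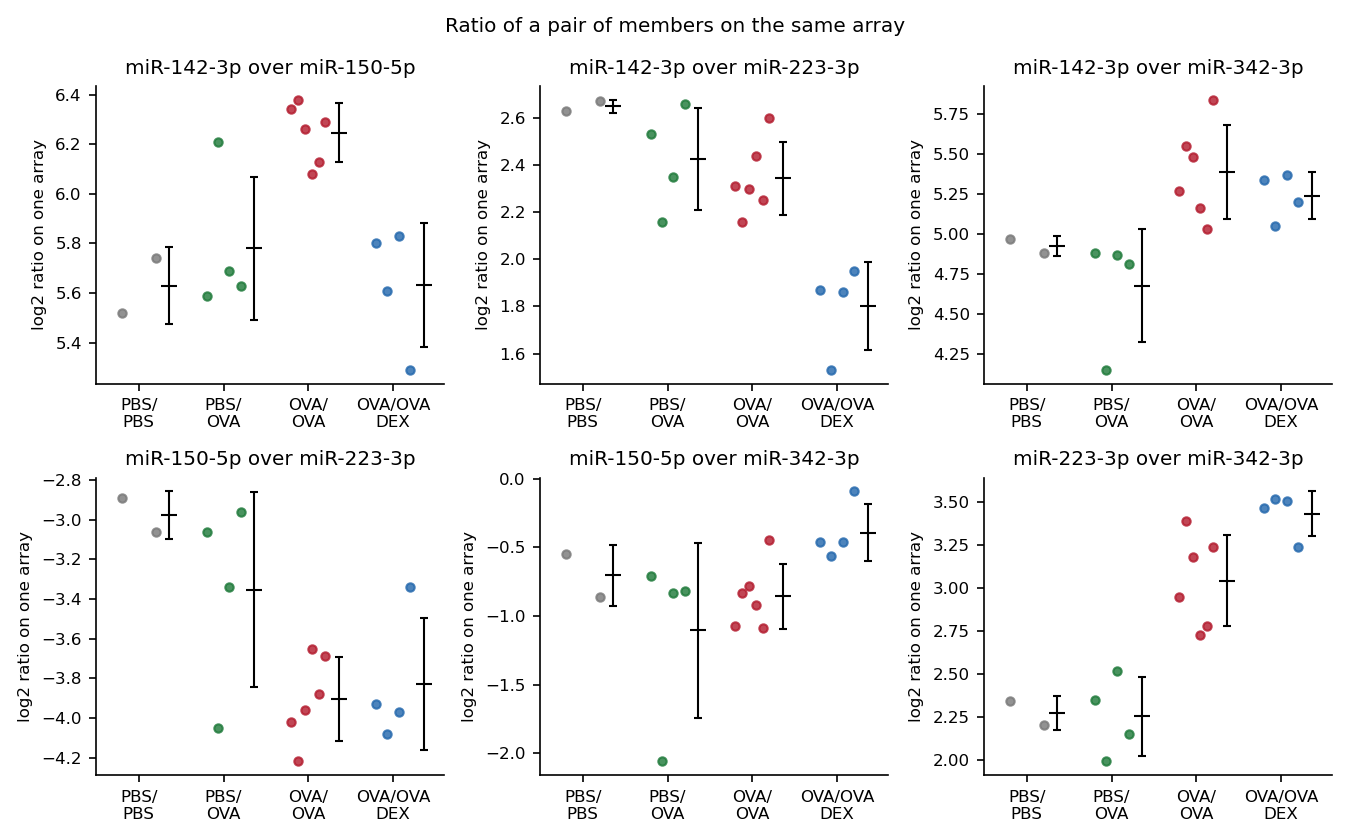
Log2 ratio of a pair of members on the same array (y axis) by group (x axis) for the 6 pairs of miR-142-3p, miR-150-5p, miR-223-3p and miR-342-3p. Points are the 16 arrays and bars the group mean ± SD. The ratio of miR-223-3p to miR-342-3p climbs from 2.25 in PBS/OVA to 3.43 in OVA/OVA DEX, and the ratio of miR-142-3p to miR-223-3p drops to 1.80 in OVA/OVA DEX.

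Within a hairpin the mean ratio of the arms differed between groups, a description made after the values were seen and not tested. The ratio of miR-142-3p to miR-142-5p was 3.55 ± 0.0286 (log2, mean ± SD, n = 2) in PBS/PBS, 3.63 ± 0.166 (n = 4) in PBS/OVA, 4.00 ± 0.245 (n = 6) in OVA/OVA and 3.52 ± 0.187 (n = 4) in OVA/OVA DEX. The OVA/OVA values, from 3.78 to 4.35, reached those of both PBS/OVA (up to 3.85) and OVA/OVA DEX (up to 3.78). The ratio of miR-342-5p to miR-342-3p was -4.85 ± 0.183 in PBS/OVA, -4.45 ± 0.269 in OVA/OVA and -4.96 ± 0.26 in OVA/OVA DEX, with overlap between all 3 groups. It rests on the dim 5p arm. In OVA/OVA minus OVA/OVA DEX miR-342-5p was at 0.34 with normexp, where miR-342-3p was at 0.45 or more under each alternative. The direction of this arm difference thus depended on the background correction.

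The other miRNAs whose pattern over the 16 arrays was nearest to each member were found by the root mean square difference of log2 levels, each miRNA centred on its own mean, among 201 non-members detected on all arrays. The miRNA nearest to miR-142-3p was miR-7a-5p, at 0.152 log2 units where the median of all 201 was 0.619, followed by miR-532-5p (0.211) and miR-340-5p (0.212). For miR-223-3p they were miR-340-5p (0.283), miR-19a-3p (0.286) and miR-532-5p (0.297), beside a median of 0.615. For miR-342-3p the nearest was miR-146b-5p (0.21, median 0.484), then miR-500-3p (0.222) and miR-141-5p (0.232). MiR-146b-5p, like miR-342-3p, was lower in OVA/OVA DEX than in PBS/OVA (-0.53, adjusted p = 0.00786). For miR-142-5p the nearest were miR-20b-5p (0.202), miR-19a-3p (0.206) and miR-690 (0.215), and for miR-150-5p miR-467b-5p (0.244), miR-92a-3p (0.25) and miR-17-3p (0.255). Among members, the closest pair was miR-142-5p and miR-150-5p (0.171), which share the low values of PBS/OVA replicate 2, and the farthest was miR-223-3p and miR-342-3p (0.517). The likeness of miR-142-5p to its own 3p arm was 0.274.

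A list of 20 other miRNAs known from leukocytes, 19 of them tested, moved in both directions. Against PBS/OVA 7 rose and 4 fell in OVA/OVA, with a median difference of 0.26, where 14.7% of all tested miRNAs rose and 16.9% fell. Against OVA/OVA DEX 8 were higher and 5 lower in OVA/OVA, with a median of 0.12, where 21.1% of all tested miRNAs were higher and 32.3% lower. The largest rise in both was that of miR-155-5p, an miRNA induced in activated lymphocytes and macrophages, by 1.87 ± 0.269 (adjusted p = 0.000344) and 2.60 ± 0.269 (adjusted p = 1.65e-05). The next were miR-18a-5p, of the miR-17 cluster, against PBS/OVA (1.10 ± 0.173, adjusted p = 0.000511) and miR-21-5p against OVA/OVA DEX (1.45 ± 0.178, adjusted p = 4.32e-05). The largest falls were those of miR-24-3p (-0.37 ± 0.128, adjusted p = 0.0428) and miR-23a-3p (-0.29 ± 0.106, adjusted p = 0.049) against PBS/OVA, and those of miR-23a-3p (-0.59 ± 0.106, adjusted p = 0.000722) and miR-181c-5p (-0.49 ± 0.0979, adjusted p = 0.00129) against OVA/OVA DEX. In OVA/OVA DEX minus PBS/OVA 0 of the 19 rose and 1, miR-146b-5p, fell.

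MiRNAs of other lung cells moved beside the members, and their part in the members' differences was not tested. Their falls in OVA/OVA stand beside 16.9% of all tested miRNAs against PBS/OVA and 32.3% against the treated group. Both endothelial miRNAs, miR-126-3p and miR-126-5p, fell in OVA/OVA in comparison with PBS/OVA and with OVA/OVA DEX, with medians of -0.39 and -0.59. Of 5 tested epithelial miRNAs 1 rose and 0 fell against PBS/OVA, and 1 rose and 1 fell against OVA/OVA DEX. Their summed level, from 13.06 to 13.35 (log2) over all groups, spanned less than that of any other list. Of 3 fibroblast miRNAs 1 fell against PBS/OVA, while 2 stood lower than in the treated mice, and of 2 smooth muscle miRNAs 0 and 2. Both tested red cell miRNAs, miR-144-3p and miR-451, stood lower in OVA/OVA than in OVA/OVA DEX (median -1.05), with a summed level of at most 16.11 in the former and at least 16.61 in the latter. Of 4 tested striated muscle miRNAs 3 fell in each comparison, and their summed level ran from 9.37 to 11.10 in OVA/OVA and from 10.92 to 11.45 in PBS/OVA. Of 3 ciliated cell miRNAs 0 changed against PBS/OVA, and 1 was higher and 2 lower against OVA/OVA DEX. In OVA/OVA DEX minus PBS/OVA the ciliated cell miRNAs parted. MiR-449a-5p was lower (-1.59, limma adjusted p = 0.00786), while miR-34b-5p (0.20) and miR-34c-5p (0.31) were higher and did not pass (limma adjusted p = 0.171 and 0.0684).

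**Figure D4:**
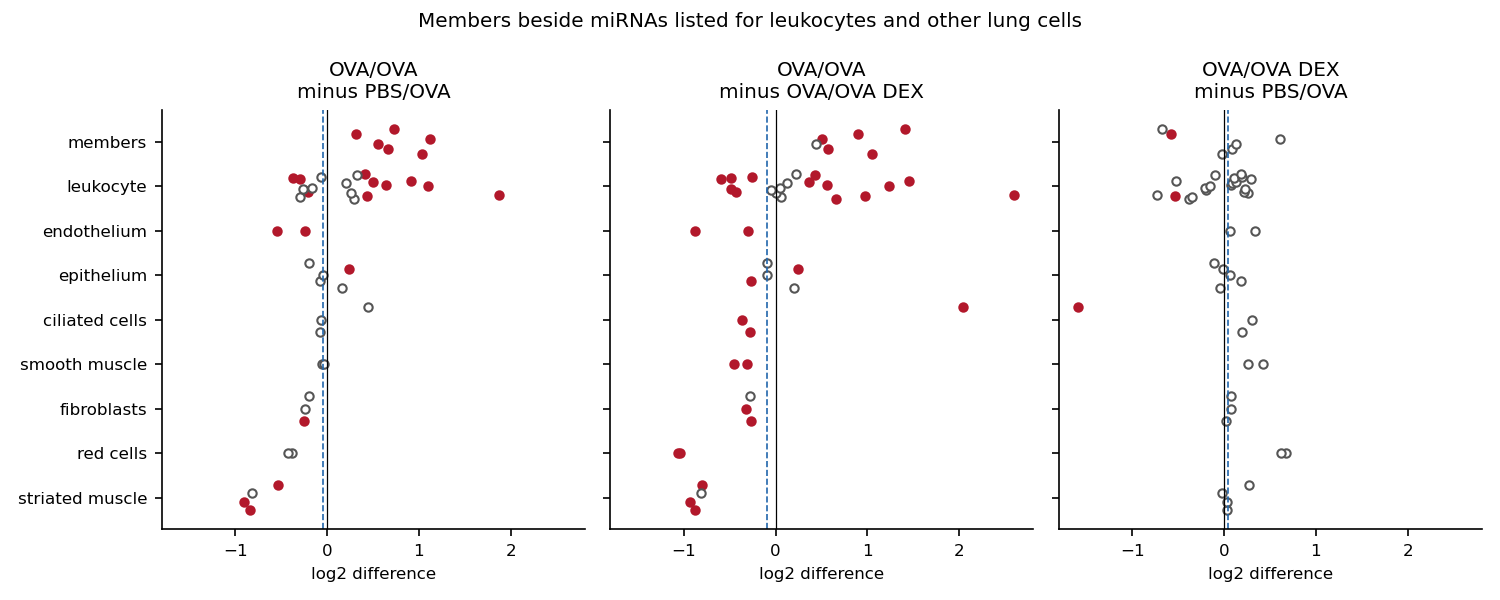
Log2 difference (x axis) of the tested members and of the tested miRNAs listed for leukocytes and for other lung cells (y axis) in 3 comparisons. Each point is 1 miRNA, filled where it passed an adjusted p of 0.05, and the dashed line is the median of all miRNAs tested. The members lie between 0.32 and 1.12 in OVA/OVA minus PBS/OVA, while both endothelial and both red cell miRNAs lie below zero. Of these, the endothelial miRNAs passed there and the red cell miRNAs did not.

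The direction of the members' change was relative to the other miRNAs of the same array. With no scaling between arrays, the median of all tested miRNAs in OVA/OVA was 1.11 log2 units below PBS/PBS and 0.56 below PBS/OVA (-1.11 and -0.56), and with scaling to control spots it was at -0.75 and -0.35. Without scaling 5 of the 6 tested members were then lower in OVA/OVA than in PBS/PBS, miR-223-3p being the exception at 0.13, and 0 members passed in any of the 3 comparisons of OVA/OVA. Set against the median of all tested miRNAs, 6 of 6 tested members were higher in OVA/OVA in each of these comparisons under all 5 scalings, by 0.22 to 1.54. A single factor per array leaves this relative value as it was by construction, and quantile normalization is the exception among the 5. With normexp, which is not among these 5, the median of all tested miRNAs was 0.54 in OVA/OVA minus PBS/PBS. MiR-150-5p, at most 0.40 there under any alternative, lay below that median. With the array's brightness as a covariate, 1 member passed against PBS/PBS (miR-223-3p), and 5 in each of the other two.

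**Figure D5:**
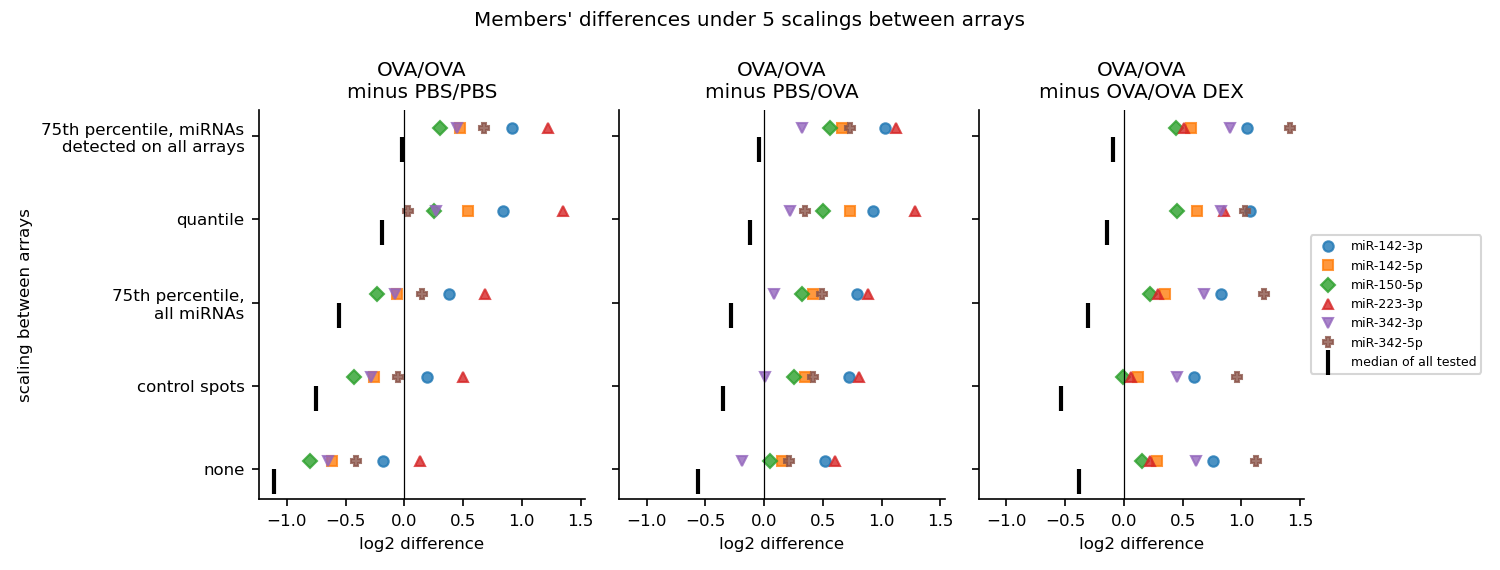
Log2 difference (x axis) of the 6 tested members, as coloured symbols, and of the median of all tested miRNAs, as black bars, under 5 scalings between arrays (y axis) in the 3 comparisons of OVA/OVA. The symbols and the bar shift together, and the members stay to the right of the bar under each scaling.

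Within each slide that held both groups, the comparisons of OVA/OVA kept their direction for all 6 tested members. On slide 1, OVA/OVA minus PBS/OVA (2 and 2 arrays) ran from 0.44 for miR-342-3p to 1.36 for miR-223-3p, and on slide 2 (4 and 2 arrays) from 0.21 for miR-150-5p to 0.99 for miR-223-3p. For OVA/OVA minus OVA/OVA DEX the ranges were 0.46 to 1.82 on slide 1 and 0.19 to 1.04 on slide 2, with miR-223-3p at 0.95 and 0.19. For OVA/OVA DEX minus PBS/OVA, miR-342-3p was lower on both slides (-0.69 and -0.47) and miR-223-3p higher on both (0.41 and 0.80), whereas miR-142-3p (0.06 and -0.10), miR-142-5p (0.39 and -0.20) and miR-150-5p (0.47 and -0.21) differed in sign between slides. PBS/PBS could be compared on slide 1 only, where OVA/OVA stood above it by 0.32 for miR-150-5p to 1.46 for miR-223-3p.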

How the data were processed

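Lung RNA of 16 samples was measured with Agilent mouse miRNA microarrays. For each array the authors deposited spot intensity from Feature Extraction 10.7.3.1, background-subtracted but not scaled between arrays, with detection and outlier flags. The authors also deposited processed log2 values, whose shift per array is not given in the sources used here. These served as an alternative for 147 miRNAs, 5 of them members, that matched the scanner output within 0.15 on all arrays.

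Control and outlier spots were left out, spots averaged per probe, probes summed per miRNA, and arrays scaled to the 75th percentile of the 206 miRNAs detected throughout. Signals below a floor of 1.71 were raised to the floor before log2 was taken. The 4 group means were fitted with limma 3.58.1 in R 4.3.3 over all 16 arrays, with Benjamini-Hochberg adjustment over the 266 miRNAs tested. A change means an adjusted p under 0.05. The fit was tested on simulated data. Exact permutation and Mann-Whitney tests were run in Python 3.11.15 with scipy 1.17.1. No counts exist for arrays, so precision rests on the number of arrays.

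Members, lists and tests were chosen with earlier results of these data known. All members were named. For each member detected on all arrays the 3 nearest other miRNAs were named, and of the leukocyte list the 2 largest rises and falls in the comparisons of OVA/OVA with PBS/OVA and with treated mice. The lists were matched by name, miR-1-3p as miR-1a-3p, and miR-486-5p was not matched. The alternatives were other scalings, a normexp background correction, other summaries, filters, floors and variance models, slide and replicate blocks, brightness as a covariate, and omission of arrays. Leaving out PBS/OVA replicate 2 and OVA/OVA DEX replicate 4 together was chosen after seeing the data.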

Additional observations from a re-analysis of the deposited data

Results flagged for a closer look

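The highest and lowest array of each group of 4 or 6 were set against the others with Dixon's test for 12 measures, the 6 tested members and the 6 ratios, in 36 groups. Chance flags about 1 group in 20, and 4 values stood apart here, 3 of them from 1 array. On PBS/OVA replicate 2 the log2 ratio of miR-142-3p to miR-150-5p was 6.21, with the nearest array at 5.69. On the same array the ratio of miR-142-3p to miR-342-3p was 4.15 (nearest 4.81) and that of miR-150-5p to miR-342-3p was -2.06 (nearest -0.83). MiR-342-5p on OVA/OVA replicate 5 had a log2 scaled signal of 4.66, with the nearest array at 5.13.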

How the results depend on the processing

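The number of tested members called moved with the scaling between arrays, and also with the fold minimum, the brightness covariate and the test. Scaling to the percentile over all mouse miRNAs gave 1 member when OVA/OVA was set beside PBS/PBS, 2 beside PBS/OVA and 3 beside the treated mice, beside 4, 6 and 5. No scaling gave 0, 0 and 0, control spots 0, 2 and 2, quantile normalization 2, 3 and 5, and a 2-fold minimum 1, 2 and 2. With array brightness as a covariate 1 member passed against PBS/PBS, and with the Mann-Whitney test 0. The split of all 266 miRNAs into higher and lower calls in OVA/OVA minus PBS/PBS moved from 35 and 33 to 3 and 156 without scaling, 12 and 125 with the percentile over all miRNAs, 9 and 154 with control spots, 15 and 41 with quantiles and 143 and 21 with normexp. In OVA/OVA DEX minus PBS/OVA, the 1 call became 0 with the 2-fold minimum, the percentile over all miRNAs, no scaling, control spots, only the 2 groups compared, the Mann-Whitney test, or the pair of arrays (PBS/OVA replicate 2 and OVA/OVA DEX replicate 4) left out together, an omission chosen after seeing the data. It became 2 with the deposited processed values and with the replicate block. In OVA/OVA DEX minus PBS/PBS the total gene signal gave 1 call in place of 0 (miR-342-5p).

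Signs turned as follows. In OVA/OVA minus PBS/PBS without scaling, miR-142-3p was at -0.18, miR-142-5p at -0.62, miR-150-5p at -0.80, miR-342-3p at -0.65 and miR-342-5p at -0.41. With the percentile over all miRNAs, miR-142-5p was at -0.06, miR-150-5p at -0.23 and miR-342-3p at -0.08. With control spots, miR-142-5p was at -0.26, miR-150-5p at -0.43, miR-342-3p at -0.28 and miR-342-5p at -0.05. Without scaling, miR-342-3p was at -0.19 against PBS/OVA, and with control spots miR-150-5p was at -0.01 against OVA/OVA DEX. In OVA/OVA DEX minus PBS/PBS, miR-142-5p was at 0.01 with brightness as a covariate, miR-150-5p at 0.01 and miR-342-5p at 0.60 with normexp, and miR-223-3p at -0.09 without scaling. In OVA/OVA DEX minus PBS/OVA, miR-142-3p was at 0.12 with control spots, miR-142-5p at -0.13 and miR-150-5p at -0.10 without scaling, the same miRNAs at -0.08 and -0.18 without the pair of arrays, and miR-342-5p at 0.14 with normexp. In PBS/OVA minus PBS/PBS, miR-142-3p, miR-142-5p and miR-150-5p were at 0.02, 0.02 and 0.01 without the pair of arrays. There, scaling to the percentile of all miRNAs put miR-223-3p and miR-342-3p at -0.19 and -0.16, and they were at -0.47 and -0.45 without scaling and at -0.31 and -0.29 with control spots, and miR-342-5p was at 0.46 with normexp and 0.01 with brightness.

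Leaving out 1 array at a time gave 1 to 5 members in OVA/OVA minus PBS/PBS, 4 to 6 in each of the remaining comparisons with untreated allergic mice, and 1 to 2 in OVA/OVA DEX minus PBS/OVA. Uncalled differences that crossed zero then ran from -0.33 to 0.05 (miR-150-5p, OVA/OVA DEX minus PBS/PBS). In OVA/OVA DEX minus PBS/OVA they ran from -0.15 to 0.06 (miR-142-3p), -0.11 to 0.19 (miR-142-5p) and -0.15 to 0.26 (miR-150-5p). In PBS/OVA minus PBS/PBS they ran from -0.20 to 0.02 (miR-142-3p), -0.29 to 0.02 (miR-142-5p), -0.45 to 0.01 (miR-150-5p) and -0.15 to 0.06 (miR-342-5p). The pairs that passed ran from 0 to 4 in each comparison. The log2 ratio of miR-150-5p to miR-342-3p ran from -0.08 to 0.37 in OVA/OVA minus PBS/OVA, and that of miR-150-5p to miR-223-3p from -0.16 to 0.09 when the treated mice were subtracted from OVA/OVA. With the deposited processed values, and with the mean of log2 over probes, 2 pairs passed in OVA/OVA minus OVA/OVA DEX and 0 in OVA/OVA DEX minus PBS/OVA. With the mean over probes the ratio of miR-150-5p to miR-223-3p differed by 0.04 in the former. The causes were not tested.

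The deviations of samples with the same replicate number correlated at -0.59 to 0.38 (median -0.01) over 18 pairs. Over 74 pairs with other numbers they correlated at -0.54 to 0.68 (median 0.035). These correlations cannot tell whether same-numbered samples shared anything beyond the number. The replicate block gave 4, 5 and 5 members in the comparisons of OVA/OVA, in the order above, and 2 in OVA/OVA DEX minus PBS/OVA. With the slide as a block 3, 5, 5 and 1 passed.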
